A study of Mus musculus with 6 samples.

Results

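Collagens are the triple-helical proteins of the extracellular matrix, and their chain genes were followed here in mouse hearts that overexpressed the Mir302 and Mir367 microRNA cluster. Members were all genes whose symbol has the form Col, a number, a and a number, each read from the brightest of its probes with 1 gene symbol, judged over the 6 arrays. The rule found 44 of the 22180 genes tested. All 44 have a RefSeq gene of the same symbol. The 6 samples came from hearts of mice of mixed C57BL/6 and 129S6 background, 3 samples per group. Control mice were Nkx2.5-Cre, which express the Cre recombinase under control of a cardiac progenitor factor. The other 3, called transgenic here, were Nkx2.5-Cre; R26R-miR302-367, in which Cre switches on the cluster placed at the Rosa26 locus. Both groups carry Cre. The transgene is driven only in cells that descend from Nkx2.5-expressing progenitors, so matrix-producing cells of other descent need not express it. The source name and the harvest protocol give postnatal day 14, while the age field gives E14 for every sample.

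A collagen molecule is built from 3 chains, which may come from 1 gene or from several. Fibrillar collagens such as types I and III bear tension, type IV forms the sheet of the basement membrane, and the FACIT group (fibril-associated collagens with interrupted triple helices) coats the fibrils. In the heart, fibroblasts make most of the fibrillar collagen. Endothelial and mural cells and cardiomyocytes contribute to basement membranes. The chains are hydroxylated and folded inside the cell, trimmed outside it and then cross-linked.

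The agent of the experiment is shown by 3 mature microRNAs of the cluster, with the seed, bases 2 to 8, in capitals. The first and second share a seed and the last has its own. Their sites in collagen messages were not analysed here.
mmu-miR-302b-3p: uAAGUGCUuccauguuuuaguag
mmu-miR-302d-3p: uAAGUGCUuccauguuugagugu
mmu-miR-367-3p: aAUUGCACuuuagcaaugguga
In the transgenic hearts the probe of Mir302b rose by 2.99 and that of Mir367 by 4.51 on the log2 scale (limma adjusted p = 0.0002713 and 1.674e-07). Sequences here come from RefSeq tables of GRCm38.p6.

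The values are deposited log2 expression values, and a difference of 1 is a 2-fold change. Array medians ranged from 5.45 to 5.54. Over all probes, correlations were 0.982 to 0.989 within and 0.974 to 0.983 between the groups. Separate animals are not named in the labels, so p-values measure only how far these samples spread, and that spread may be technical. The number of arrays limits the precision. Without detection calls, a dim gene cannot be told from background. In control hearts 24 collagen genes had means above the median of all genes and 20 below it.

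Most collagen chain genes differed little between the groups, and Col8a1 was lower in the transgenic hearts. Of 44 collagen genes, 1 fell and 0 rose at an adjusted p under 0.05 (2.27%), while 11.1% of all genes tested passed, 5.35% higher and 5.76% lower. At an unadjusted p under 0.05 there were 5 collagen genes higher and 6 lower, against 25.4% of all genes. The median log2 fold change, transgenic minus control, was -0.06 over the collagen genes and -0.03 over all genes. The 95% interval of the difference, not adjusted for the number of genes, stayed within 1.5-fold in either direction for 42 of the 44 (95.5%), against 81.4% of all genes. The 2 others were Col8a1, the gene that fell, and Col23a1, a transmembrane collagen with an interval from -0.66 to 0.10. The plot of all 44 differences orders them by class.

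**Figure D1:**
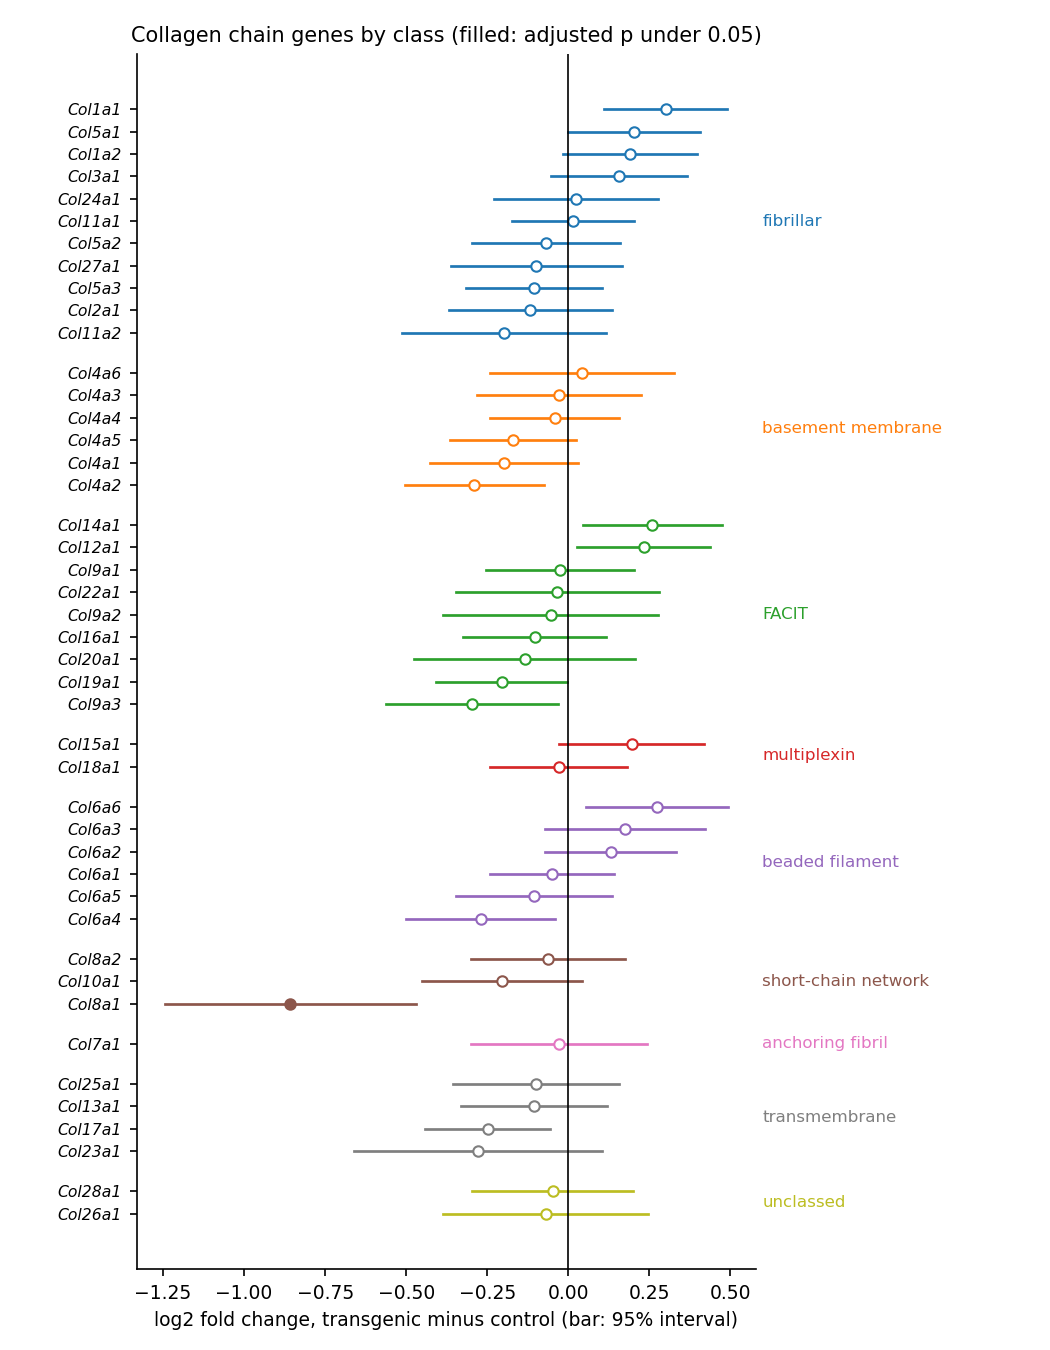
Log2 fold change (transgenic minus control, x axis) of each of the 44 collagen chain genes, grouped by class, with bars for the 95% interval and a filled point where the limma adjusted p is under 0.05. Col8a1 at -0.86 is the only filled point, and the other points lie between -0.30 and 0.30.

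Control and transgenic values were fully separate for 13 collagen genes (29.5%), against 30.9% of all genes, so the share over the whole family was close to the background. Of these, 7 were higher on every transgenic array, against 14.2% of all genes, and 6 were lower, against 16.7%. The higher set was Col1a1, Col1a2, Col5a1, Col6a6, Col12a1, Col14a1 and Col15a1. The lower set was Col4a2, Col4a5, Col6a4, Col8a1, Col17a1 and Col19a1. The counts are also given by level, and a difference between levels was not tested. Among the 24 collagen genes above the median of all genes in control hearts, 9 were separate (37.5%, against 30.9% of all genes), 6 higher and 3 lower. Among the 20 dimmer ones, which may reflect background, 4 were separate, 1 higher and 3 lower. The median size of the difference was 0.163 over the 24 and 0.055 over the 20. A background of all genes split by level was not tested.

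Col8a1, a chain of the short-chain collagen VIII that forms networks beneath endothelium and in vessel walls, fell in transgenic hearts. Control hearts had log2 values of 7.20, 7.08 and 7.08, and transgenic hearts 5.85, 6.32 and 6.62. All transgenic values lay below all control values, and they were spread more widely among themselves. The means were 7.12 ± 0.069 and 6.26 ± 0.385 (SD, n = 3 each), a 1.81-fold difference with a log2 fold change of -0.86, an SE of 0.17 and a 95% interval from -1.25 to -0.47 (limma adjusted p = 0.01487). The call was lost without control 1 (adjusted p = 0.0556, log2 fold change -0.82), and over all 13 alternatives the adjusted p ranged from 0.00572 to 0.0556. In whole hearts, fewer cells of a type and less RNA per cell cannot be told apart. Its partner chain Col8a2 had 5.26, 5.21 and 5.52 in control and 5.19, 5.27 and 5.34 in transgenic hearts. Those groups overlapped, with a difference of -0.06 (95% interval -0.30 to 0.175). In control hearts Col8a2 was at percentile 38.2 of all genes and Col8a1 at 67.7, so the Col8a2 probe may reflect background. Col10a1, the short-chain collagen of growth plate cartilage, had -0.20 with overlapping groups (95% interval -0.45 to 0.04).

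The promoter of Col8a1, the collagen gene that fell, is shown as a window of 250 bases before to 50 after the start in GRCm38.p6, chr16:57754688-57754987, minus strand, with GC boxes (GGGCGG or its complement CCGCCC, which Sp1-type factors bind) in capitals.
Col8a1: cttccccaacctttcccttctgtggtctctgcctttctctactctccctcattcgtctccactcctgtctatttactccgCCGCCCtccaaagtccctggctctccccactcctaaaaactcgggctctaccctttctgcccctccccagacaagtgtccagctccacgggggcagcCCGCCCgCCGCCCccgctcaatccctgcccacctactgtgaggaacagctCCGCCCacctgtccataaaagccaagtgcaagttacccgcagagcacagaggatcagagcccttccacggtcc
It holds 4 GC boxes, 0 CCAAT boxes and 0 TATAAA motifs on either strand, with a GC content of 60.3% where the median of all 32851 windows was 52.7%. A GC box may overlap a CCAAT box at its end. A GC box was present in 35.7% of all windows and in 23 of the 38 windows of the 35 collagen genes listed. A CCAAT box (or ATTGG) was in 37.4% of all windows and 13 of the collagen windows, and TATAAA (or TTTATA) in 13.6% and 5.

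Fibrillar collagens had 0 called members of 11, with a median of 0.015, 6 values above 0 and 5 below. With arrays centred on their medians that median was -0.02. The positive values above 0.1 were those of Col1a1, Col1a2, Col3a1 and Col5a1. Col1a1, the alpha-1 chain of type I collagen, was at 8.91, 8.89 and 8.89 in control hearts and at 9.16, 9.15 and 9.29 in transgenic hearts. The control samples were nearly identical and every transgenic sample lay above them. The means were 8.90 ± 0.0071 and 9.20 ± 0.077 (SD, n = 3 each), with a log2 fold change of 0.30 (SE 0.083, 95% interval 0.11 to 0.49) and a limma adjusted p = 0.05152, just past the threshold. It passed under 4 of 13 alternatives, with the dimmest genes left out (adjusted p = 0.0292), renewed quantile normalization (0.04425), an intensity trend with robust variance (0.01424) and array weights (0.03845). The range over all alternatives was 0.01424 to 0.1575, and the value stayed between 0.26 and 0.33.

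Col1a2, which supplies the other chain of type I collagen, was at 8.23, 8.31 and 8.30 in control and 8.39, 8.43 and 8.60 in transgenic hearts. The groups were apart by a small margin, with a difference of 0.19 (95% interval -0.02 to 0.40, adjusted p = 0.2313). A second, dimmer Col1a2 probe had -0.01. Col3a1, the type III chain that forms mixed fibrils with type I, was at 8.59, 8.68 and 8.57 against 8.68, 8.73 and 8.90. Its groups overlapped, with a difference of 0.16 (95% interval -0.05 to 0.37). Col5a1, a regulator of fibril assembly, was at 7.14, 7.26 and 7.33 against 7.52, 7.41 and 7.42, a difference of 0.20 without overlap (adjusted p = 0.1951). Its second probe, also dimmer, had 0.001. The partner chain Col5a2 had a value of -0.07 and Col5a3 of -0.11, both with overlapping groups. Col2a1, Col11a1, Col11a2, Col24a1 and Col27a1, of which the first 3 are cartilage collagens, ranged from -0.20 for Col11a2 to 0.02 for Col24a1 with overlapping groups in each.

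Basement membrane collagens had 0 called members of 6 and a median of -0.11, with 5 values below 0. Col4a2, which joins with Col4a1 in the most widespread type IV trimer, was at 8.21, 8.31 and 8.18 in control and 8.04, 7.81 and 7.98 in transgenic hearts. Every transgenic value lay below every control value, with a difference of -0.29 (SE 0.094, 95% interval -0.50 to -0.08, adjusted p = 0.08834). Of the 13 alternatives, it passed only under the intensity trend with robust variance (adjusted p = 0.04774), and the range over the 13 alternatives was 0.04774 to 0.2645. Col4a1 was at 8.12, 8.18 and 8.03 against 7.81, 7.85 and 8.08. Transgenic 3 lay inside the control range, and the difference was -0.20 (95% interval -0.43 to 0.03, adjusted p = 0.2653). Col4a5, an X-linked chain, was at 6.69, 6.84 and 6.83 against 6.67, 6.60 and 6.59, a difference of -0.17 without overlap (adjusted p = 0.2608). Col4a3, Col4a4 and Col4a6, chains best known from kidney and other specialised membranes, had values of -0.03, -0.04 and 0.04 with overlapping groups.

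Col4a1 and Col4a2 are transcribed away from each other from a common promoter, and their windows are shown because both chains had negative values. The Col4a1 window is chr8:11312777-11313076 on the minus strand and the Col4a2 window chr8:11312555-11312854 on the plus strand of GRCm38.p6, and they share 78 bases. GC boxes and CCAAT boxes, either strand, are in capitals.
Col4a1: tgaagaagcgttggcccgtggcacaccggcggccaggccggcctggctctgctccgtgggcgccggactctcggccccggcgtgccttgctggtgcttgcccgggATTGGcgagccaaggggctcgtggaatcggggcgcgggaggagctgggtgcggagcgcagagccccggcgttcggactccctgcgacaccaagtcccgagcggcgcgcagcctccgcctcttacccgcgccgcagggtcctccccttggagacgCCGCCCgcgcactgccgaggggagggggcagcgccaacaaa
Col4a2: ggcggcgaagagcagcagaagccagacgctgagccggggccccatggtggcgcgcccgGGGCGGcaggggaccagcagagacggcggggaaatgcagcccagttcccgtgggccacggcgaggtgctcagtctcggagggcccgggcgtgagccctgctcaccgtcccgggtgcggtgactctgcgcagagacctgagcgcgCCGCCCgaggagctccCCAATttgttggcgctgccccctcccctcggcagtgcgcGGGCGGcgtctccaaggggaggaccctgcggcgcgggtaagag
The Col4a1 window holds 1 CCAAT box and 1 GC box at a GC content of 74.0%, and the Col4a2 window 1 CCAAT box and 3 GC boxes at 73.7%. Neither holds TATAAA. A box that lies in the shared bases is counted in both windows.

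**Figure D2:**
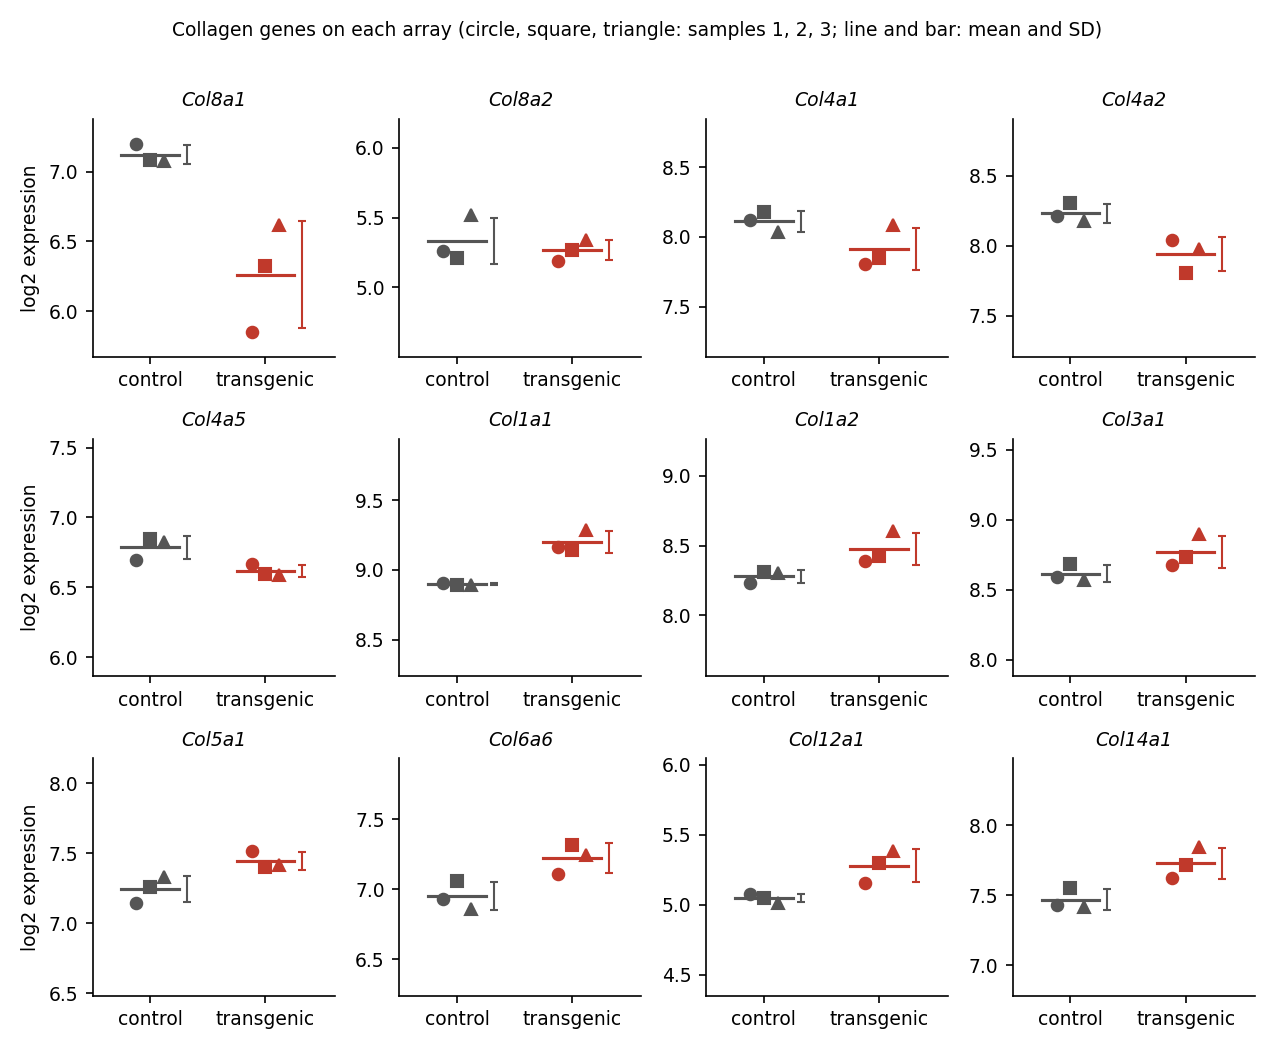
Log2 expression (y axis) of 12 collagen genes on each array in control (grey) and transgenic (red) hearts, with the mean as a line and the SD as a bar, and panels spanning the same log2 range. Col8a1 is lower on all transgenic arrays (5.85 to 6.62 against 7.08 to 7.20), and the other shifts are of 0.30 or less.

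Endothelial cells, which lay down much of the type IV collagen of vessels, had lower marker levels in the same transgenic hearts. Of 8 endothelial markers, 5 fell and 0 rose (62.5% called, against 11.1% of all genes, of which 5.76% lower), with a median of -0.40, and their mean log2 level ranged from 9.49 to 9.57 in control and from 9.06 to 9.28 in transgenic hearts. All 8 lay above the median of all genes in control hearts, so the 11.1% is not a background of matched level. Of 7 smooth muscle and pericyte markers 3 fell and 0 rose (42.9% called, median -0.26), and their mean level ranged from 8.998 to 9.12 and from 8.67 to 8.87. The call of the endothelial marker Pecam1 held under all 13 alternatives, and those of Cdh5, Tie1, Emcn and Esam were each lost under 3 to 8. The mural markers that fell were Acta2, Rgs5 and Pdgfrb, and their calls were lost under 3, 1 and 7 alternatives. In the same list Cspg4 had 0.33, higher on every transgenic array (adjusted p = 0.06064), and Myh11 had -0.08 with overlapping groups. The part of these shifts in the type IV and Col8a1 values was not tested. Of 8 fibroblast markers 1 fell (12.5%), with a median of -0.12 and mean levels from 8.70 to 8.91 and from 8.57 to 8.70. It was Mfap4, whose call was lost under 5 of 13 alternatives (adjusted p = 0.0711 to 0.135). Of the fibroblast markers, Lum and Dcn are also counted as fibril partners and Lamc3 as a laminin. The 7 cardiomyocyte markers, all at or above the percentile 97.3 of all genes, had 0 calls and mean levels from 12.36 to 12.43 and from 12.38 to 12.39. Of 7 macrophage markers 6 fell (85.7%), with mean levels from 6.73 to 6.87 in control and from 6.01 to 6.22 in transgenic hearts. Of those calls, that of Fcgr1 was lost under 8 alternatives and that of C1qa under 3. Of 5 epicardial markers 1 fell, and all 5 had negative values, from -0.58 to -0.33. Their mean level ranged from 6.96 to 7.16 and from 6.42 to 6.83. The epicardial call was Msln, lost when any 1 array was left out (adjusted p = 0.0534 to 0.114). Of 3 Schwann cell markers 1 fell (33.3%), at list means from 4.56 to 4.86 and from 4.44 to 4.68. It was Sox10, at 5.38, 5.33 and 5.40 in control and 4.83, 4.66 and 4.97 in transgenic hearts, without overlap (adjusted p = 0.009126). Cdh19 had -0.05 and Pmp2 0.09 with overlapping groups, and all 3 lay below the median of all genes in control hearts. The part of these lists in the collagen values was not tested either.

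FACIT collagens had 0 called members of 9, and their values went both ways (median -0.05, from -0.30 to 0.26). Col14a1, which binds the surface of type I fibrils, was at 7.43, 7.55 and 7.42 in control and 7.62, 7.72 and 7.84 in transgenic hearts. The groups were apart, with a difference of 0.26 (95% interval 0.05 to 0.47, adjusted p = 0.1188). Col12a1, its close relative, was at 5.08, 5.05 and 5.01 against 5.15, 5.30 and 5.38, a difference of 0.23 without overlap (adjusted p = 0.1443). Both relatives thus had positive values. In the other direction, Col9a3, a chain of the cartilage collagen IX, had -0.30 with overlapping groups (adjusted p = 0.1498), and Col19a1 had -0.20 without overlap (adjusted p = 0.1918). Col9a1, Col9a2, Col16a1, Col20a1 and Col22a1 lay between -0.13 and -0.02 with overlapping groups.

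Of the multiplexins, which sit in basement membrane zones and release antiangiogenic fragments, Col15a1 was at 7.86, 8.16 and 8.05 in control and 8.24, 8.17 and 8.25 in transgenic hearts. The groups were apart by a narrow margin, with a difference of 0.20 (95% interval -0.03 to 0.42, adjusted p = 0.2616). Col18a1, the source of endostatin, had -0.03 (95% interval -0.24 to 0.18).

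Collagen VI, the beaded microfilament around muscle fibres and fibroblasts, had 0 called members of 6. Col6a6, which can take the place of the alpha-3 chain, was at 6.93, 7.06 and 6.86 in control and 7.11, 7.32 and 7.25 in transgenic hearts. Every transgenic value was higher, with a difference of 0.27 (95% interval 0.06 to 0.49, adjusted p = 0.1108). The main chains Col6a1, Col6a2 and Col6a3 had values of -0.05, 0.13 and 0.18 with overlapping groups, and a second Col6a1 probe had 0.02. Col6a4 was at 5.02, 4.87 and 5.10 against 4.78, 4.81 and 4.60, a difference of -0.27 without overlap (adjusted p = 0.1289). Col6a5 had -0.11 with overlapping groups.

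All 4 transmembrane collagens had negative values (median -0.18), and 0 of them passed. Without control 3 the median was -0.07, Col23a1 had -0.088 in place of -0.28, and Col25a1 was at 0.00. Col17a1, the hemidesmosomal collagen of skin, was at 5.67, 5.65 and 5.77 against 5.41, 5.41 and 5.52, a difference of -0.25 without overlap (adjusted p = 0.1022). Col23a1 had -0.28, Col13a1 -0.11 and Col25a1 -0.10 with overlapping groups. Col7a1 of anchoring fibrils had -0.03, and the unclassed Col26a1 and Col28a1 had -0.07 and -0.05, again with overlap.

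One control array was often the highest for collagen genes. Control 3 was the highest of the 6 arrays for 24 of 44 collagen genes (54.5%), and for 14 of the 20 dimmer ones, against 23.3% of all genes. The share over all dim genes was not counted. Over all genes control 3 was also most often the highest array and most often the lowest (20.8%, against 13.6% of collagen genes). Averaged over the 44 genes, the log2 value minus the control mean of each gene was -0.06 for control 1, -0.04 for control 2 and 0.10 for control 3, and -0.08, -0.08 and -0.01 for transgenic 1 to 3. Without control 3 the median collagen difference was 0.01 in place of -0.06, and the FACIT median was 0.06 in place of -0.05. For basement membrane genes the means were 0.00, -0.06 and 0.05 in control and -0.10, -0.17 and -0.07 in transgenic hearts, so these groups did not overlap. Without control 3 the log2 fold change was 0.30 for Col1a1, -0.88 for Col8a1 and -0.32 for Col4a2.

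**Figure D3:**
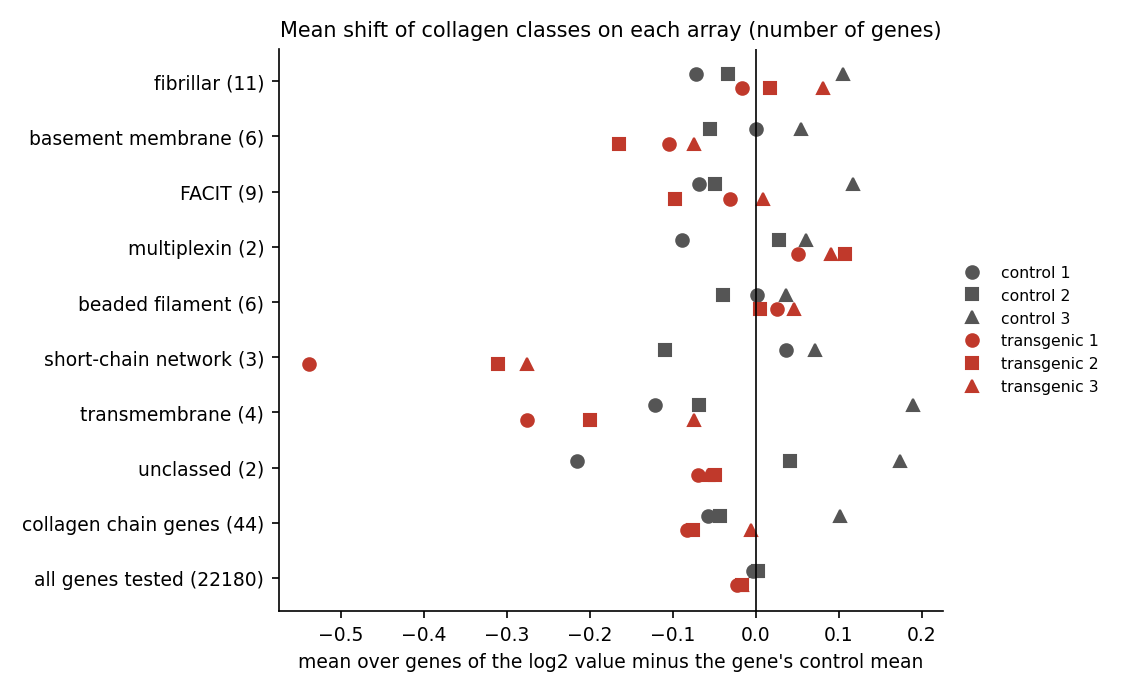
Mean over the genes of each collagen class of the log2 value minus the gene's control mean (x axis), for each control (grey) and transgenic (red) array, with the number of genes in parentheses. Control 3 (grey triangle) lies to the right in most classes, and the short-chain network, which holds Col8a1, is lower on every transgenic array (-0.54 to -0.28).

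Partner chains of 1 collagen type were compared by the difference between their log2 fold changes within arrays, over 11 pairs. The exact permutation test of 3 against 3 arrays, two-sided, cannot give a p below 0.1, so no pair could pass. Col8a1 and Col8a2 differed by -0.79 (exact p = 0.1, the smallest possible, and 0.275 after Benjamini-Hochberg adjustment). Col1a1 and Col1a2 differed by 0.11 (exact p = 0.1), Col6a1 and Col6a2 by -0.18 (exact p = 0.1), and Col9a1 and Col9a3 by 0.27 (exact p = 0.1). Col4a1 and Col4a2, which share a promoter, differed by 0.09 (exact p = 0.4), and Col5a1 and Col5a2 by 0.27 (exact p = 0.2). In size the Col8 difference was the largest of the 11, and the others were 0.27 or less. Because Col8a2 lay below the median of all genes, its small change may be that of a background signal.

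Several genes that modify and process collagen chains changed. Of 32 measured, 6 fell and 1 rose (21.9%, against 11.1% of all genes), with a median of -0.03. The count was 4 without control 1 or transgenic 1 and 3 without transgenic 2 or transgenic 3. In control hearts 28 of the 32 lay above the median of all genes, and the share was not set against genes of similar level. Among prolyl 4-hydroxylases, which stabilise the triple helix, P4ha3 rose and both other alpha subunits fell. P4ha3 was at 5.68, 5.24 and 5.66 in control and 6.68, 6.66 and 6.45 in transgenic hearts. The groups were far apart, with a log2 fold change of 1.07 (SE 0.13, adjusted p = 0.001883). P4ha1, the main alpha subunit of most cells, dropped by 0.34 in log2 units (adjusted p = 0.03759), and P4ha2 fell by 0.44 (adjusted p = 0.03588). The calls of P4ha1 and P4ha2 were lost with the replicate block (0.0772 and 0.0646) and without control 1, control 2 or any transgenic array, at adjusted p-values up to 0.133 and 0.13. The beta subunit P4hb had 0.03.

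Lysyl hydroxylases prepare lysines for sugars and cross-links, and both that were measured fell. Plod1 was at 9.24, 9.27 and 9.33 in control and 8.94, 8.87 and 8.80 in transgenic hearts, and fell by 0.41 (adjusted p = 0.01665). Plod2, which acts on telopeptide lysines, was at 8.15, 8.27 and 7.92 against 7.59, 7.61 and 7.61, and fell by 0.51 (adjusted p = 0.01663). The Plod1 call was lost without transgenic 2 (0.0645) or transgenic 3 (0.0635). The Plod2 call was lost without control 1 (0.0607), transgenic 1 (0.0638), transgenic 2 (0.0615) or transgenic 3 (0.053). Plod3 was not analysed here.

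Pcolce2, an enhancer of procollagen C-proteinase, was at 8.52, 8.74 and 8.74 in control and 7.67, 7.69 and 7.92 in transgenic hearts. It fell by 0.91 (SE 0.11, adjusted p = 0.001487), and its call held under all 13 alternatives. Its relative Pcolce had 0.22 (95% interval 0.01 to 0.44, adjusted p = 0.1818), and the proteinase itself, Bmp1, 0.16 (adjusted p = 0.2801). Tmem38b, an endoplasmic reticulum cation channel needed for normal collagen production in bone, was at 6.63, 7.02 and 6.33 against 5.86, 5.64 and 5.77. It fell by 0.90 (SE 0.16, adjusted p = 0.008918) and kept its call under all alternatives. Serpinh1, the collagen chaperone HSP47, had -0.14 (95% interval -0.38 to 0.09), and the prolyl 3-hydroxylase complex had 0 calls among 6 genes.

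The cross-linking enzymes had 0 calls among 5. Lox, a lysyl oxidase, had 0.20 without overlap (adjusted p = 0.1915), Loxl1 -0.31 without overlap (adjusted p = 0.1702) and Pxdn, which cross-links type IV collagen, 0.31 without overlap (adjusted p = 0.0893). Loxl3 had -0.19 without overlap (adjusted p = 0.2205) and Loxl4 -0.21 with overlapping groups (adjusted p = 0.3013).

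**Figure D4:**
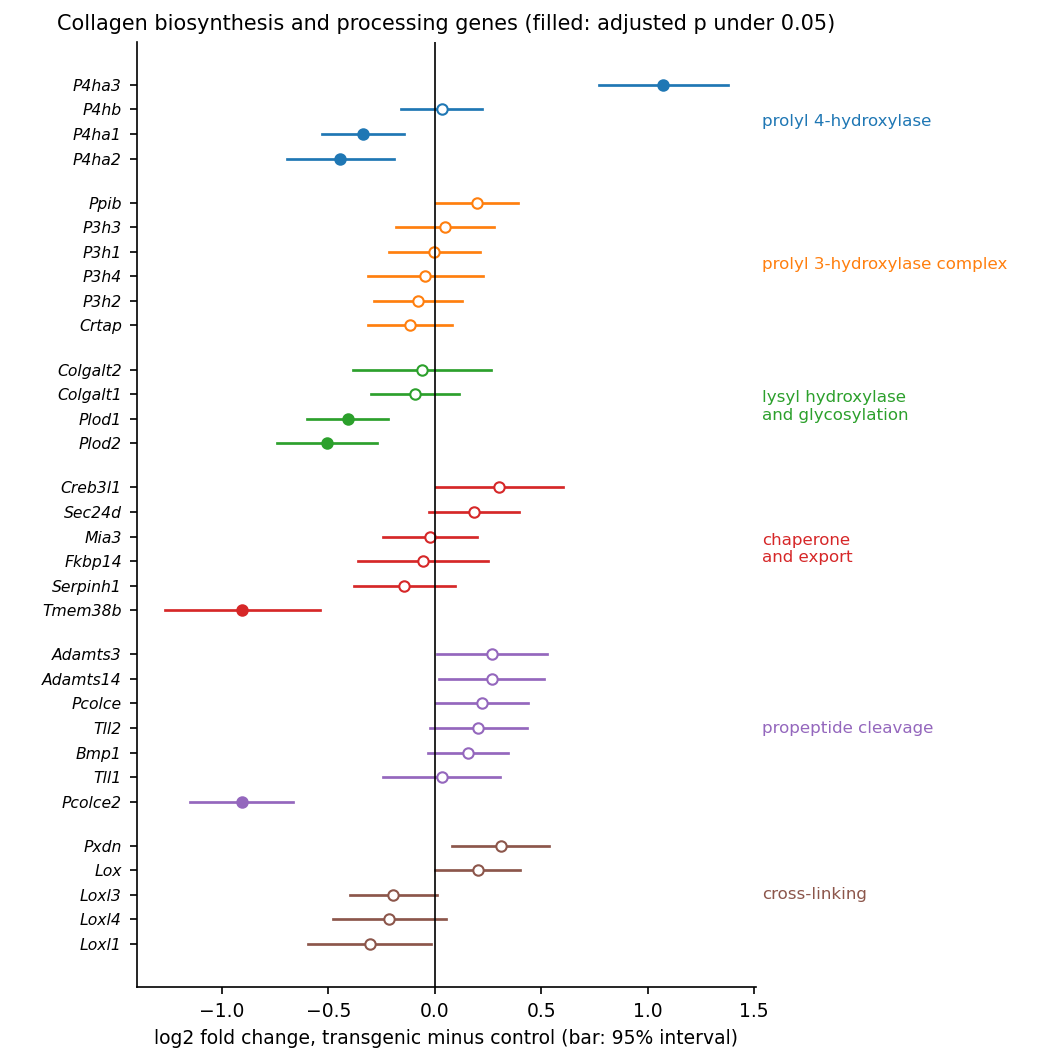
Log2 fold change (transgenic minus control, x axis) of 32 genes of collagen biosynthesis and processing by role, with bars for the 95% interval and filled points where the limma adjusted p is under 0.05. P4ha3 at 1.07 is the only filled point to the right, and 6 filled points lie to the left, down to -0.91 for Pcolce2.

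Of 9 collagen receptors, 1 rose and 0 fell (11.1%, as over all genes). Ddr1, a receptor tyrosine kinase for collagens, rose by 0.35 (adjusted p = 0.04498), while a second, dimmer Ddr1 probe had -0.31. That call was lost under 9 of 13 alternatives, among them each left-out array, the mean of both probes (adjusted p = 0.935), centred arrays (0.0751) and the replicate block (0.0862). Itgb1, the beta subunit of collagen-binding integrins, had -0.30 without overlap (adjusted p = 0.05489), and Ddr2 had -0.11.

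Partners of type IV collagen in the basement membrane went both ways, with 3 of 14 higher and 1 lower (28.6% called, against 11.1% of all genes). Of these 4 calls, 1 was left without control 1, transgenic 2 or transgenic 3, and 2 without control 2 or transgenic 1. In control hearts 11 of the 14 lay above the median of all genes, and this share too was not set against genes of similar level. Lama5, a laminin alpha chain, was at 7.36, 7.15 and 7.47 in control and 7.72, 7.87 and 7.97 in transgenic hearts, and rose by 0.53 (adjusted p = 0.01954). Lamb1 rose by 0.41 (adjusted p = 0.01946) and Lamb2, an alternative beta chain that marks mature membranes of muscle, fell by 0.49 (adjusted p = 0.01032). Lamb1 was at 8.86, 9.01 and 9.06 against 9.43, 9.37 and 9.37, and Lamb2 at 9.32, 9.42 and 9.50 against 8.87, 9.01 and 8.89. The beta chains thus moved in opposite directions. Agrn, a heparan sulfate proteoglycan, rose by 0.39 (adjusted p = 0.03329), and Hspg2, perlecan, had -0.19. The Lamb2 call held under all 13 alternatives, while those of Lama5, Lamb1 and Agrn were each lost under at least 4, with adjusted p-values up to 0.0744, 0.0777 and 0.12.

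Among 13 partners of collagen fibrils, 2 fell and 1 rose (23.1%, against 11.1% of all genes), and 1 call was left when any 1 transgenic array was removed. In control hearts 12 of the 13 lay above the median of all genes, and an excess over genes of similar level was not tested. Ogn, the small leucine-rich protein osteoglycin, which takes part in fibril assembly, was at 10.10, 10.32 and 10.09 in control and 9.21, 9.21 and 9.14 in transgenic hearts. It fell by 0.98 (SE 0.094, adjusted p = 0.0005902), larger than any collagen chain difference, with the call held under all 13 alternatives. Prelp, which anchors basement membranes to collagen, fell by 0.45 (adjusted p = 0.02167), with a second, dimmer probe at 0.02. The Prelp call was lost with the mean of both probes (0.201) and without control 2 or any transgenic array (0.0567 to 0.0865). Postn, periostin, rose by 0.33 (adjusted p = 0.04495), a call lost under 8 of 13 alternatives with adjusted p-values up to 0.159. The microRNA genes Mir29a and Mir29b-1, known repressors of collagen messages, had values of -0.04 and -0.08 at levels within the lowest 0.857% of all genes, which limits what these values can show. The cartilage markers, 7 in all, had 0 calls, and 6 of them lay below the median of all genes.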

How the data were processed

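Total RNA (100 ng per sample, per the labels) from the 6 heart samples was amplified with a poly(T) primer and hybridised to Affymetrix arrays. The deposited values are log2 expression per probe, made by the authors with tools among which the submitters' processing notes list oligo, RMA and limma. Their versions, settings and probe filters: not given in the sources used here. Of 41345 probes, 23521 have 1 gene symbol in the platform's annotation, 1814 several and 16010 none. Only the first kind was used, with the brightest probe of each of the 1082 genes that had more than 1, which left 22180 genes.

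Transgenic minus control differences were fitted in R 4.3.3 by limma 3.58.1 (lmFit, then eBayes) without covariates or a filter on dim probes, two-sided, with Benjamini-Hochberg adjustment over all genes and a threshold of 0.05. The step was tested on simulated data with 50 genes changed at each size. It called 0% of the 1.25-fold, 38% of the 1.5-fold, 82% of the 2-fold and 100% of the 4-fold changes. Far fewer genes were changed there than were called here, so these shares need not hold in the data. Classes, lists and named genes follow written rules: every called collagen gene, 10 fixed ones, the 2 smallest p in each class, their partner chains, Serpinh1, P4ha1, Lox and Bmp1, up to 5 called genes of the biosynthesis list and 3 of each other list. The other collagen genes are given for completeness, and further genes beyond the rules, such as P4ha2, Agrn, Pxdn and Itgb1, were chosen after their values were seen. Members and lists were chosen with earlier results of these data known. List genes without a probe of their own were not analysed here. The alternatives are listed with their effects in the closing section.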

Additional observations from a re-analysis of the deposited data

How the results depend on the processing

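The fit was repeated with a share of 0.333 of the genes, the dimmest, removed. Further alternatives averaged the probes of a gene, normalized by quantiles again, centred arrays on their medians, used an intensity trend with robust variance, array weights or the replicate number as a block, and left out each array in turn. The signs of 31 of 44 collagen differences held under all 13, and 3 collagen genes were called under at least 1. The count of collagen genes called higher was 0, and 1 with the dimmest genes left out, renewed quantile normalization, the intensity trend with robust variance or array weights, which was Col1a1. The count called lower was 1, 2 with the trend and robust variance and 0 to 1 with an array left out. The collagen median ranged from -0.11 to 0.01 with an array left out. Biosynthesis genes called numbered 3 to 7, receptors 0 to 0, basement membrane partners 1 to 3, fibril partners 1 to 2 and all genes 1171 to 2249 when an array was left out. Receptors called were 2 with the dimmest genes left out or the trend and robust variance and 0 with averaged probes or the replicate block. Fibril partners called were 5 with the trend and robust variance. The cause of these changes was not tested.

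The deviations of same-numbered samples from their group means correlated at 0.016, -0.13 and 0.014, and those of other pairs at -0.11 to 0.11. These values show no sign that the numbers pair the samples, but with 3 samples per group they cannot exclude it. With the replicate block, all genes called numbered 1996, and of the collagen genes Col8a1 alone passed (limma adjusted p = 0.02191). With 4 residual degrees of freedom the number of arrays limits which single genes could pass.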

Other observations

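Some proteins outside the chain family carry a collagen-like domain. Of 21 such genes, 7 fell and 1 rose (38.1%, with 11.1% over all genes). The list was put together after the data were seen, so its share does not measure an excess over all genes. All 3 chains of complement C1q, made by macrophages, fell. C1qb was at 8.57, 8.63 and 8.57 in control and 7.66, 7.57 and 7.65 in transgenic hearts, and fell by 0.96 in log2 units (limma adjusted p = 0.0003309). C1qc fell by 0.68 (adjusted p = 0.008881) and C1qa by 0.67 (adjusted p = 0.01625). The C1qa call was lost without control 1 (0.0571), transgenic 1 (0.0591) or transgenic 2 (0.0521). How the alternatives affected the calls of the other genes named in this section is not reported here. In the same hearts 6 of 7 macrophage markers fell, C1qa among them. Their mean level ranged from 6.73 to 6.87 in control and 6.01 to 6.22 in transgenic hearts, and the part of this in the C1q values was not tested.

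Colec11, a soluble collectin of innate immunity, had 8.95, 8.43 and 8.23 in control and 7.43, 6.40 and 7.44 in transgenic hearts, and fell by 1.44 (SE 0.29, adjusted p = 0.01436). C1qtnf9, a secreted C1q-related protein known from the heart, fell by 0.99 (adjusted p = 0.002341), while its second, dimmer probe had -0.21. C1qtnf7 fell by 0.65 (adjusted p = 0.003921) and Emid1 by 0.50 (adjusted p = 0.01846). Eda, ectodysplasin, rose by 0.51 (adjusted p = 0.03035).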
